A study of Homo sapiens with 6 samples.

Results

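The cytosolic heat shock proteins were examined in SW480 cells with and without induction of KIAA1199. The group comprised 7 genes, chosen as cytosolic heat shock proteins by a list of Ensembl gene identifiers that uses no measured value: HSPA8 (ENSG00000109971_at), HSPA4 (ENSG00000170606_at), HSPH1 (ENSG00000120694_at), HSP90AA1 (ENSG00000080824_at), HSP90AB1 (ENSG00000096384_at), DNAJB1 (ENSG00000132002_at) and HSPB1 (ENSG00000106211_at). All 7 were present among the 26445 probe sets of the deposited table. SW480 cells come from a human colorectal cancer. All 6 cultures carried the tetracycline repressor vector pcDNA6TR and the pT-Rex-DEST30-KIAA1199 construct, and were kept in G418 at 0.4 mg/ml, blasticidin S at 7 µg/ml and fetal calf serum (10%) approved for Tet systems. Uninduced cells (n = 3) were compared with cells given doxycycline at 50 ng/ml for 48 h (n = 3), in 3 independent experiments, by hybridization of total RNA to GeneChip Human Exon 1.0 ST arrays. According to the results of the study, the cells were those of 1 clone, Clone 13. No array of repressor-only cells with doxycycline was used here, so doxycycline itself and KIAA1199 cannot be told apart.

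Heat shock proteins are chaperones that bind unfolded or partly folded proteins and help them fold, refold or be passed on for degradation. In the cytosol, J-domain proteins deliver clients to HSP70, proteins of the HSP110 family exchange its nucleotide, HSP90 completes the maturation of kinases and receptors, and small heat shock proteins hold unfolded chains until HSP70 takes them. Several of these genes are targets of the heat shock factor HSF1, which binds heat shock elements, alternating GAA and TTC triplets, in their promoters.

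In these arrays the probe sets of the 7 genes differed little between induced and uninduced cells. The largest difference was that of HSPB1, the small heat shock protein HSP27, whose level with doxycycline was 1.197-fold that without it. HSPH1, an HSP110 protein, had a lower level with doxycycline on all 3 arrays, at 0.907-fold. HSPA8, the constitutive HSP70 of the cytosol, was at 1.005-fold and HSP90AB1, the constitutive HSP90, at 1.014-fold. None of the 7 genes passed the limits that the study set for a change (0 of 7), an unadjusted p under 0.025 together with a fold change of at least 1.2, which 5.83% of all probe sets passed in limma with the experiment as a block (2.9% raised and 2.94% lowered). The study made its own selection on transcript clusters, another grouping of the probes of these arrays, and HSPA8 is on its list of changed genes. The values here, for HSPA8 as for the others, are those of the Ensembl-based probe sets, whose probes are not given in the sources used here. None of the 7 had an adjusted p under 0.05 (0 of 7), but neither had any other probe set (0% of 26445). At an unadjusted p under 0.05, 1 of the 7 genes, HSPB1, was counted, against 12.3% of all probe sets.

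The promoters of 4 members are shown because they cover both genes whose groups did not overlap, HSPB1 and HSPH1, and 2 genes with small differences, HSPA8 and HSP90AB1. Each is the RefSeq window (GRCh38.p14) from 250 bases before to 50 bases after a transcription start, read 5′ to 3′ on the strand of the gene. For HSP90AB1, only the window with matches is shown. Capitals mark heat shock elements of 2 units, GAANNTTC or TTCNNGAA, each of which reads the same on both strands. A longer element of 3 units joins GAANNTTC and TTCNNGAA, in either order, so that they share 1 triplet, and was searched on both strands.
HSPB1 (chr7:76302423-76302722, + strand): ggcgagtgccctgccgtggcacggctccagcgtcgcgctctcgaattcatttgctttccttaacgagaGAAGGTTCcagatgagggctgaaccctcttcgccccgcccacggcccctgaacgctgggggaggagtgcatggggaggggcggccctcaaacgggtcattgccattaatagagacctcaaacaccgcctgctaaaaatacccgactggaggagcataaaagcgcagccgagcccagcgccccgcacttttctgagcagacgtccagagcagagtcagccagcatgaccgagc
HSPH1 (chr13:31162339-31162638, - strand): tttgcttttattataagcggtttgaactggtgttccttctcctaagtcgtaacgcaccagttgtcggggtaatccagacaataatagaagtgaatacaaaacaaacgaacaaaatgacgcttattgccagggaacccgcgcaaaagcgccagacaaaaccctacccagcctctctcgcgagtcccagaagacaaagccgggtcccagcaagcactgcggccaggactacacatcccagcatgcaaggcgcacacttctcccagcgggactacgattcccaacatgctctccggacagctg
HSPA8 (chr11:123062087-123062386, - strand): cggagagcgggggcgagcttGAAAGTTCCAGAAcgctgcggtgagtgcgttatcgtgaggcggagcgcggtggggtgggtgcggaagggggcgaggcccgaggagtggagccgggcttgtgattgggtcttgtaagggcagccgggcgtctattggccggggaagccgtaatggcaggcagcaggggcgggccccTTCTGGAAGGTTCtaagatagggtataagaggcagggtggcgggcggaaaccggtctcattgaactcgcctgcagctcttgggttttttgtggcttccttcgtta
HSP90AB1, start 3 (chr6:44247693-44247992, + strand): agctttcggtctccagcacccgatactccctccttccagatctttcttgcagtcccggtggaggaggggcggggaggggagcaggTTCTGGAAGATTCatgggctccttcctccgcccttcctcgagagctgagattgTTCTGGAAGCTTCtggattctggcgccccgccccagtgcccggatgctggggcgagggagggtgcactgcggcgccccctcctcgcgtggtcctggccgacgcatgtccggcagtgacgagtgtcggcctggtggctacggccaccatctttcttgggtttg

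In its single window, HSPB1 had 1 element of 2 units, from base -182 to -175 counted from the transcription start. HSPA8 had 2 elements of 3 units, beginning at bases -230 and -55. HSP90AB1 also had 2 of these, at bases -165 and -112 before start 3 of its 3 listed starts, and its other windows had no match. The HSPH1 window and the HSPA4 window had none, which says only that these letters were not found there. All 7 genes were found in the promoter table, with 12 windows in all. HSP90AA1 had a 3-unit match beginning at base -88 of window 2 and a separate 2-unit match at -68, and DNAJB1 had 2-unit matches only, at -77 and -47 of window 2 and at base 2 of window 3. In HSP90AB1, HSP90AA1 and DNAJB1 each window with a match lay downstream of another listed start of the gene. Of the 7 genes, 5 had a 2-unit match in some window and 3 had a 3-unit match. The corresponding shares among the 27305 genes of the table were 16.2% and 0.608%. Counted by window, a 2-unit match was in 6 of the 12 windows of these genes and in 13.5% of all 35116 windows. The 3 genes with the longer element were HSPA8, HSP90AA1 and HSP90AB1. None of the 7 genes passed the limits, so these calls cannot tell genes with the element from those without it. A match is a description of the letters, not evidence that a factor binds there.

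**Figure D1:**
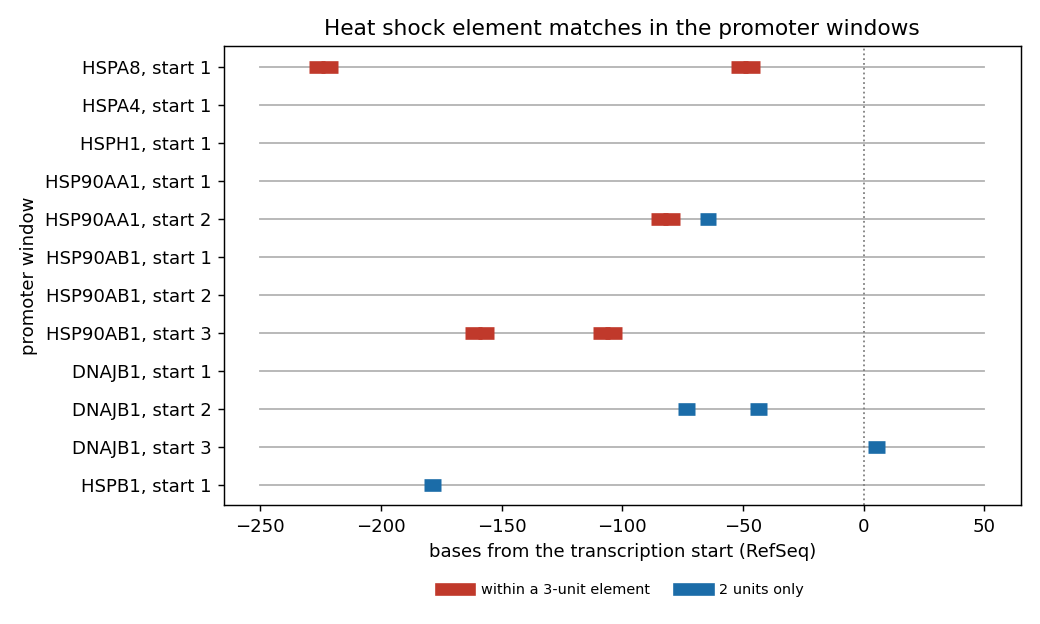
Positions of heat shock element matches in the 12 RefSeq promoter windows of the 7 genes; the horizontal axis is the distance in bases from the transcription start (dotted line), each grey line is a window, red marks matches within a 3-unit element and blue marks 2-unit matches. HSPA8, HSP90AA1 and HSP90AB1 hold the 3-unit elements, while HSPA4 and HSPH1 have no match.

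The levels below are log2 expression values, 1 per gene and array, and a difference of 1 is a doubling. Any pair of the 6 arrays correlated over all probe sets with an r between 0.984 and 0.989 (Pearson), and every array had a median of 5.66 and a maximum of 12.6. The deposited values are given in steps of 0.01 at levels of 10 and above, which applies to 5 of the 7 genes. No table used here pairs other Ensembl identifiers with symbols. KIAA1199, other chaperones and the markers of the cell line were therefore not analysed here.

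HSPA8 folds newly made proteins, uncoats clathrin vesicles and is present in unstressed cells. In experiments 1, 2 and 3 its level was 12.07, 12.00 and 12.07 without doxycycline and 12.11, 12.00 and 12.05 with it. The arrays thus spanned 0.11 in all, and the groups overlapped, with the lowest value in experiment 2 of both. The mean was 12.05 ± 0.040 (SD, n = 3) without and 12.05 ± 0.055 (SD, n = 3) with doxycycline. The log2 fold change was 0.0067 with a standard error of 0.061 (limma, adjusted p = 0.98) and a 95% interval from -0.16 to 0.18, or 0.893-fold to 1.13-fold. The probe set was brighter than 99.97% of all probe sets and lay near the array maximum. Whether such bright signals still respond in proportion was not tested. On its transcript clusters the study lists HSPA8 as raised, by more than the upper end of this interval.

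HSPA4 and HSPH1 belong to the HSP110 family, whose members release ADP from HSP70 so that it can let go of its client. HSPA4 had levels of 10.38, 10.53 and 10.52 without and 10.38, 10.47 and 10.46 with doxycycline in the 3 experiments. Its lowest value was that of experiment 1 in both groups, so the groups overlapped and the experiments differed by more (0.12 between the highest and lowest pair mean) than the conditions (0.040). The log2 fold change was -0.040 (SE 0.062, limma adjusted p = 0.83, 95% interval -0.21 to 0.13). HSPH1 had levels of 11.06, 11.06 and 11.10 without and 10.97, 10.94 and 10.89 with doxycycline. All 3 induced arrays were below all 3 uninduced ones, with means of 11.07 ± 0.023 and 10.93 ± 0.040 (SD, n = 3). The differences were -0.09, -0.12 and -0.21, a log2 fold change of -0.14 (SE 0.065, limma adjusted p = 0.48, 95% interval -0.32 to 0.041). The interval includes 0, and the exact permutation of the signs of the 3 differences gave a two-sided p of 0.25, which is the lowest possible with 3 experiments. The unadjusted limma p was 0.098 in this fit and 0.030 with a prior that follows the level, both above the p limit of the study.

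HSP90AA1 and HSP90AB1 encode the cytosolic HSP90 proteins, the first inducible by stress and the second constitutive. HSP90AA1 had levels of 11.48, 11.42 and 11.57 without and 11.36, 11.43 and 11.27 with doxycycline. The groups overlapped through experiment 2, where the pair differed by 0.01, while the induced array was lower by 0.12 in experiment 1 and by 0.30 in experiment 3. Its log2 fold change of -0.14 (SE 0.087, limma adjusted p = 0.59) had a 95% interval from -0.38 to 0.11. HSP90AB1 had levels of 11.58, 11.63 and 11.68 without and 11.69, 11.63 and 11.63 with doxycycline. The groups overlapped, and the 3 differences were 0.11, 0 and -0.05. The log2 fold change was 0.020 (SE 0.069, limma adjusted p = 0.93, 95% interval -0.17 to 0.21).

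DNAJB1 is a J-domain protein, also called HSP40, which hands clients to HSP70 and stimulates its ATPase. Levels of 8.205, 8.008 and 8.309 without and 8.194, 8.100 and 8.580 with doxycycline were measured in the 3 experiments. It was the most variable of the 7, with a span of 0.57 over the arrays, and its highest values were those of experiment 3 and its lowest those of experiment 2, in both groups. Its pair means differed by up to 0.39 between experiments, against a difference of 0.12 between the conditions. The log2 fold change of 0.12 (SE 0.084, limma adjusted p = 0.63) had a 95% interval from -0.11 to 0.35. The 3 differences were -0.011, 0.092 and 0.271, so the mean rested largely on experiment 3, and without that experiment it was 0.041.

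HSPB1, known as HSP27, holds unfolded proteins and stabilises actin filaments. Its levels were 7.379, 7.329 and 7.325 without and 7.663, 7.472 and 7.676 with doxycycline. All 3 induced arrays were above all 3 uninduced ones, and the induced array of experiment 2 was the closest to them. The means were 7.34 ± 0.030 and 7.60 ± 0.11 (SD, n = 3), so the induced arrays also varied more. The differences of 0.284, 0.143 and 0.351 gave a log2 fold change of 0.26 (SE 0.074, 95% interval 0.054 to 0.46), or 1.197-fold with an interval from 1.04-fold to 1.38-fold. In limma the unadjusted p was 0.0247 and the adjusted p 0.36, so by this fit HSPB1 was within the p limit of the study but just short of its 1.2-fold minimum, a log2 difference of 0.263. With all 6 arrays kept, the p limit was also met in limma without the block (0.0159), with a prior that follows the level (0.0108) and without the dimmest 25% of probe sets (0.0180). It was not met in 3 other fits, with limma and a robust prior (0.0255), with limma after removal of the level trend (0.0275) and with the paired test that the methods name (0.0516). The exact permutation of signs over the experiments gave p = 0.25, again the lowest possible. With no fold change minimum it was the 1 member counted as higher. It was also counted, at 0.33, in a fit without the block and without the induced array of experiment 2.

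**Figure D2:**
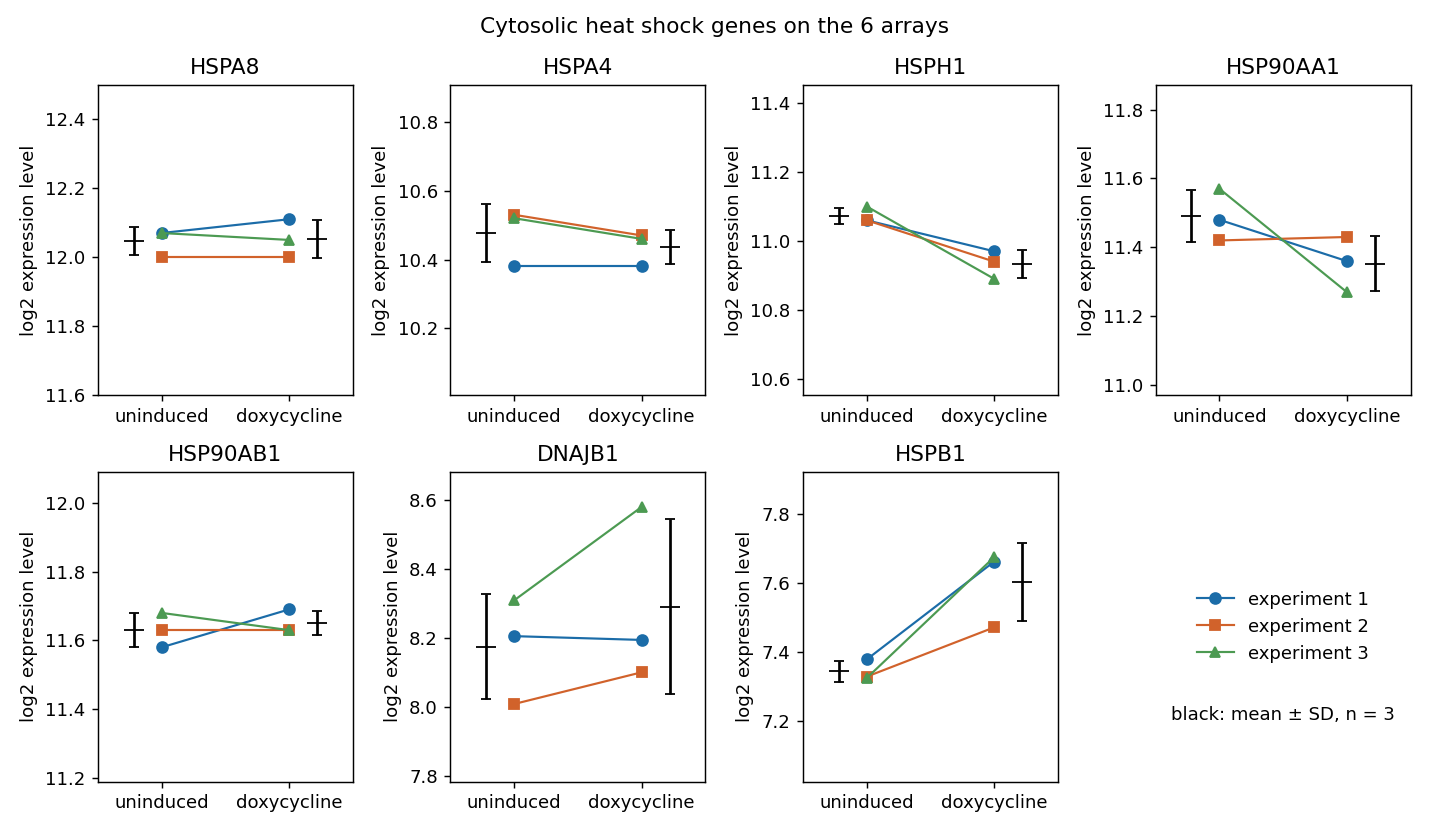
Log2 expression level (vertical axis) of each of the 7 genes on the uninduced and doxycycline arrays; lines join the arrays of an experiment, black bars are the mean ± SD (n = 3), and every panel spans the same 0.9 log2 units. The groups are apart for HSPH1 (lower with doxycycline) and HSPB1 (higher), while DNAJB1 differs mostly between experiments.

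The intervals refer to these probe sets and not to other probes of the same gene. For HSPA8, HSPA4 and HSP90AB1 the 95% interval lay within 1.2-fold in both directions. This does not set aside a larger change in HSPA8, which the study lists as raised past 1.2-fold on its transcript clusters. For HSPH1, HSP90AA1, DNAJB1 and HSPB1 it reached beyond 1.2-fold in 1 direction, downwards in the first 2 and upwards in the others, so a change of that size in that direction was not set aside.

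**Figure D3:**
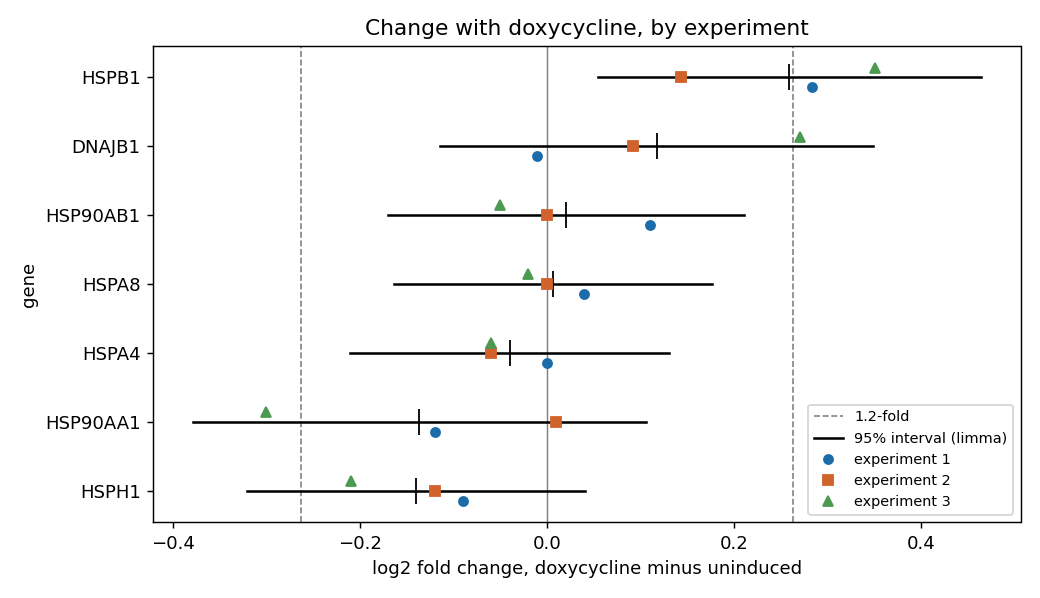
Log2 fold change, doxycycline minus uninduced (horizontal axis), of each gene: coloured symbols are the 3 experiments, the black tick and bar the limma estimate with its 95% interval, and dashed lines mark 1.2-fold. Of the 7 intervals, only that of HSPB1 (0.054 to 0.46) excludes 0, and those of HSPA8, HSPA4 and HSP90AB1 lie between the dashed lines.

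As a group the 7 genes did not move in 1 direction. Of the 7 log2 fold changes, 4 were above 0 (HSPA8, HSP90AB1, DNAJB1 and HSPB1) and 3 below (HSPA4, HSPH1 and HSP90AA1), with a median of 0.0067, against 0.0017 over all probe sets. In size, regardless of direction, the median log2 fold change was 0.12 in the 7 genes, 0.10 in the whole table and 0.11 in the brightest 25% of it. Groups that did not overlap were found for 2 of the 7 genes, 1 higher (HSPB1) and 1 lower (HSPH1) with doxycycline, where 16.6% of all probe sets had them, 8.64% higher and 7.93% lower. The same 2 genes differed in the same direction in all 3 experiments, as did 36.5% of all probe sets. By the size of the difference, HSPB1 stood above 84.2% of all probe sets, HSPH1 above 62.8% and HSPA8 above 3.8%. The paired test that the methods name also counted 0 of the 7 genes at the study's limits, against 2.18% of all probe sets. Its fold changes are those of limma, all short of the study's minimum, so the count for the 7 genes could not differ.

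**Figure D4:**
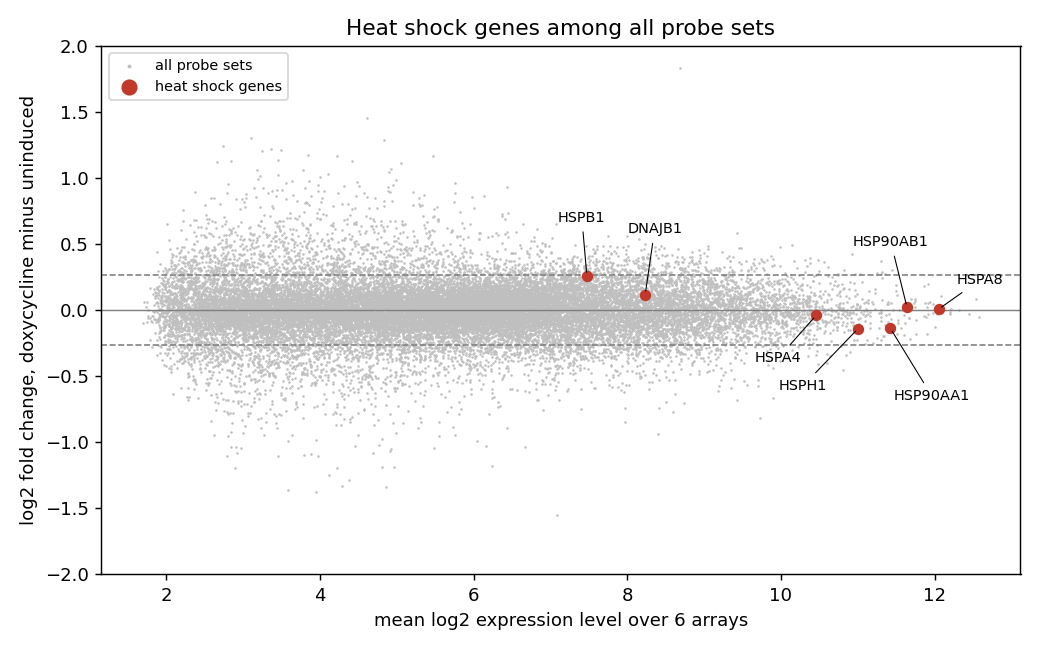
Log2 fold change, doxycycline minus uninduced (vertical axis), against the mean log2 level over the 6 arrays (horizontal axis) for all 26445 probe sets (grey) and the 7 heat shock genes (red); dashed lines mark 1.2-fold. The red points lie inside the dashed lines, HSPB1 at 0.26 next to the upper one, and 5 of them are at levels of 10 and above.

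The experiments differed in how far the genes moved. The absolute difference was largest in experiment 3 for HSPH1, HSP90AA1, DNAJB1 and HSPB1, and in experiment 1 for HSPA8 and HSP90AB1. The median absolute difference of the 7 genes was 0.09, 0.06 and 0.21 in experiments 1, 2 and 3. Among the brightest 25% of all probe sets it was 0.12, 0.12 and 0.16, so larger differences in experiment 3 were not tested as particular to the heat shock genes. In that experiment the differences of HSPB1 (0.351) and DNAJB1 (0.271) were above 0, and those of HSP90AA1 (-0.30) and HSPH1 (-0.21) below.

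Paralogs were set against each other by the difference of their changes within an experiment, in 3 pairs. HSP90AA1 minus HSP90AB1 was -0.23, 0.01 and -0.25, a mean of -0.16 ± 0.14 (SD, n = 3), with p = 0.50 from the exact two-sided permutation of signs and 0.50 after adjustment over the 3 pairs. HSPH1 minus HSPA4 was -0.09, -0.06 and -0.15, a mean of -0.10 ± 0.046 (SD, n = 3; exact permutation p = 0.25, adjusted 0.38). HSPA8 minus HSPA4 was 0.04, 0.06 and 0.04, with a mean of 0.047 ± 0.012 (SD, n = 3; exact permutation p = 0.25, adjusted 0.38). In the last 2 pairs the difference had 1 sign in all experiments, but the design cannot give a p under 0.25, and the HSPA8 values are only a few rounding steps of 0.01. HSPA8, HSP90AA1 and HSP90AB1 have processed pseudogenes of similar sequence. Whether the probes of these or any other of the 7 genes also took up transcripts of similar sequence was not tested.

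The mean of the 7 centred levels was -0.018, -0.043 and 0.042 on the uninduced arrays and 0.013, -0.034 and 0.040 on the induced arrays of experiments 1, 2 and 3. It was highest in experiment 3 and lowest in experiment 2 in both groups, so this mean followed the experiment more than doxycycline. That does not hold for each gene. The change with doxycycline exceeded the range of the pair means in HSPH1 (0.14 against 0.02), HSP90AA1 (0.137 against 0.005) and HSPB1 (0.259 against 0.12). In HSPA8, HSPA4, HSP90AB1 and DNAJB1 it did not. The levels were not scaled, and the range was widest in DNAJB1 (0.391). Changes of opposite sign cancel in this mean. Among 13214 other probe sets above the median level, those most like it over the 6 arrays were ENSG00000070159, with a Pearson r of 0.983, and ENSG00000056277, with 0.981, which no table used here names. Their log2 fold changes were 0.037 and 0.011. With 6 arrays and this many probe sets compared, such values are given as a description only.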

How the data were processed

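The authors deposited log2 expression levels, 1 per probe set and array, for 26445 probe sets named by Ensembl gene identifiers. The submitters' processing notes name RMA (background correction, quantile normalization and summary over probes). Its version, the build and the probe set definitions are not given in the sources used here. RMA draws arrays to 1 distribution, so a shift shared by most genes would not be seen. Every array column entered the fits, with no further normalization and no filter.

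Groups and experiment numbers came from the sample titles. The treatment text of the labels names doxycycline for all 6 samples, so it was not used to form groups. Levels were tested (2-sided) by lmFit and eBayes of limma (3.58.1; R 4.3.3), with the experiment as a block because the methods use a paired test, and adjusted by Benjamini-Hochberg over all probe sets. Single genes were also tested by an exact permutation of the signs of the 3 differences (sign-flip). P-values rest on the spread between 3 experiments, whose number limits the precision. In limma the spread of each gene is also drawn towards that of all probe sets, which enters its intervals too. The fit was also run on simulated data, which held no differences between experiments, so that run did not test the block.

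All 7 genes are reported, as are the probe sets most like their mean. Members, lists and tests were chosen with earlier results of these data known. The symbols of the 7 identifiers came with that choice. Planned lists of other chaperones, co-chaperones, heat shock factors and cell markers were not analysed here, since the identifiers could not be named. Promoters and their motifs came from RefSeq windows (GRCh38.p14). The alternatives changed the block, test, normalization, filter, variance prior, level trend, fold minimum and the experiments or arrays kept.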

Additional observations from a re-analysis of the deposited data

How the results depend on the processing

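Each group had 3 arrays, which limits how small a difference can be placed. HSPH1, HSPA4 and HSP90AA1 stayed below 0 and uncalled in all 17 alternatives, with ranges of -0.17 to -0.11, -0.088 to -0.012 and -0.21 to -0.055. HSPB1 stayed above 0 in its 17, from 0.21 to 0.33. It passed the study's limits only without the block and without the doxycycline array of experiment 2 (0.33), where 1 member was counted, as with no fold change minimum (1). No member was counted as lowered (0) in the 19 alternatives. With arrays or experiments left out, HSPA8 ranged from -0.022 to 0.033 (up to 0.020 with the block), HSP90AB1 from -0.025 to 0.055, DNAJB1 from -0.027 to 0.21 and the median of the 7 from -0.027 to 0.030 (up to 0.020 with the block), so their signs are not settled. HSPA8 turned below 0 without experiment 1 (-0.010) and, without the block, without the doxycycline array of experiment 1 (-0.022) or the uninduced array of experiment 2 (-0.017). HSP90AB1 did so without experiment 1 (-0.025) and, without the block, without its uninduced array (-0.0050), and DNAJB1 without the doxycycline array of experiment 3 (-0.027). The median was -0.025 without experiment 1.

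Over all probe sets, 766 raised and 777 lowered ones passed the study's limits. The methods' t-test gave 282 and 295, no replicate block 476 and 574, and a fold change minimum of 1.5 gave 108 and 130. With an experiment left out, 464 (without experiment 2) to 637 were raised, with 473 without experiment 3, and 513 (without experiment 3) to 707 lowered. Without the block, leaving out an uninduced array gave 413 raised (experiment 1) or 285 raised with 411 lowered (experiment 2), and leaving out a doxycycline array gave 503 with 494 (experiment 1) or 357 with 413 (experiment 3). These fits have fewer arrays, and no other cause was tested. At an adjusted p of 0.05 there was no call (0) in any of 17 alternatives, and the further quantile normalization and the centring say little, since the arrays already share nearly 1 distribution (HSPH1 -0.1406 after the former, against -0.14).

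Arrays with the same experiment number deviated from their group means with a mutual r of 0.039, 0.049 and 0.13 (different numbers, -0.092 to 0.044). All are small, but those of experiments 2 and 3 lay above that range, so they do not settle whether the arrays are paired. Without the block, 0 of the 7 members were called, as with it, and HSPB1 was again at 0.26. With 3 complete pairs the block cannot alter a log2 fold change, and all were short of the study's minimum. Neither result tests the block.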
